A study of Homo sapiens with 20 samples.

Results

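The arrays described here are the 6 vehicle arrays of a retinoid experiment, out of 20 in all, on Mel202 cells, an established line from a human uveal melanoma. They were chosen by their treatment label: 3 arrays of cells kept for 48 h with the ethanol vehicle (EtOH 48 h) and 3 arrays of cells kept for 24 h with it (EtOH 24 h). The cells carry mutant GNAQ, are wild type for BRAF, and were grown per the labels in DMEM/F12 with serum and antibiotics in 6-well plates. The other arrays hold cells given all-trans retinoic acid (ATRA) or 9-cis retinoic acid (9-cis RA) in the same vehicle for the same times. Per the labels, both retinoids were given at the same nanomolar concentration at both times. Ethanol was present in every group, so that no group shows Mel202 without it. Arrays 2 and 3 of each vehicle group share a sample number in their titles and were averaged, which left 4 of 14 samples: replicate 1 and replicate 2-3 at 48 h, and replicate 1 and replicate 2-3 at 24 h. Whether each sample was a culture of its own is not stated in the labels. In the fit to all 14 samples, the spread behind each p-value is pooled over the 6 groups, retinoid groups included. That spread may be technical. Mel202 is 1 cell line, and no other line was measured.

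Uveal melanoma arises from the pigment cells of the iris, ciliary body and choroid. In most such tumours an activating mutation of GNAQ or GNA11, which encode G protein alpha subunits, drives phospholipase C beta, and from there the RasGRP3 and MAPK pathway and the YAP transcription co-activator. Melanocyte identity rests on the transcription factors MITF, SOX10 and PAX3, which act on the genes of melanin synthesis. Cell density, nutrients and growth factors in a culture can change with time, and genes of the cell cycle, cell contact, nutrient sensing and lipid synthesis are known to respond to them.

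The EtOH 48 h arrays detected 30% to 34.4% of all probes, and the EtOH 24 h arrays 28.2% to 35.9%. The 10673 genes tested each had a probe whose detection p was below 0.01 on 3 or more of the 20 arrays, and 8148 of them were detected on all 6 vehicle arrays. On all 3 arrays, 8573 genes were detected at 48 h and 8290 at 24 h, while 230 genes were detected on none of the 6. The arrays fell into 2 sets by their number of detected probes, set 1 with more than 15000. Replicates 1 and 2 of each vehicle group lay in set 1 and replicate 3 in set 2, and differences within each set are given beside the called genes. All values below are normalized log2 intensities of 1 probe per gene, on a scale that cannot be compared between genes.

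The 48 h samples stood apart from one another. The root mean square difference over all genes was 0.51 between the 48 h samples (replicate 1 against replicate 2-3), against 0.23 between the 24 h samples. Samples of the 4 retinoid groups lay between 0.23 and 0.39 from the others of their group. Replicate 1 of 48 h lay 0.43 from each 24 h sample, and replicate 2-3 of 48 h lay 0.29 and 0.31 from them. At 48 h, 532 genes were more than 2-fold apart between replicate 1 and replicate 2-3 (174 higher and 358 lower in replicate 1), compared with 17 genes between the 24 h samples. The widest gap among genes detected on all 6 arrays, found after the values were seen, was in CHP1, which encodes a calcineurin-like calcium-binding protein. It read 7.41 and 11.13 in the 48 h samples and 10.83 and 10.92 in the 24 h samples. TCEA1, a transcription elongation factor, read 8.03 and 11.32 at 48 h and 9.92 and 9.63 at 24 h. CTNNB1, which encodes beta-catenin, read 7.74 and 9.99 at 48 h and 9.34 and 9.09 at 24 h. In these genes the 48 h value of replicate 1 was far below all others, and for TCEA1 and CTNNB1 that of replicate 2-3 was above both 24 h values. Results are also given without 1 of the 48 h samples where that changed a call of a gene named here. Such a fit leaves 1 sample at 48 h, which is assumed to vary like the samples of the other groups. Counts of calls without replicate 1 or without replicate 2-3 of 48 h rest on that spread. For single genes the difference alone is given from these fits. Without replicate 2-3 the sample left is replicate 1, the farther of the 48 h samples from those at 24 h. Without replicate 2-3 the 48 h minus 24 h difference was -3.47 for CHP1, -1.74 for TCEA1 and -1.47 for CTNNB1. These 3 genes were picked for their gap, so the values restate that gap and are no test of a change with time. Without replicate 1, TCEA1 differed in the other direction, by 1.55.

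**Figure D1:**
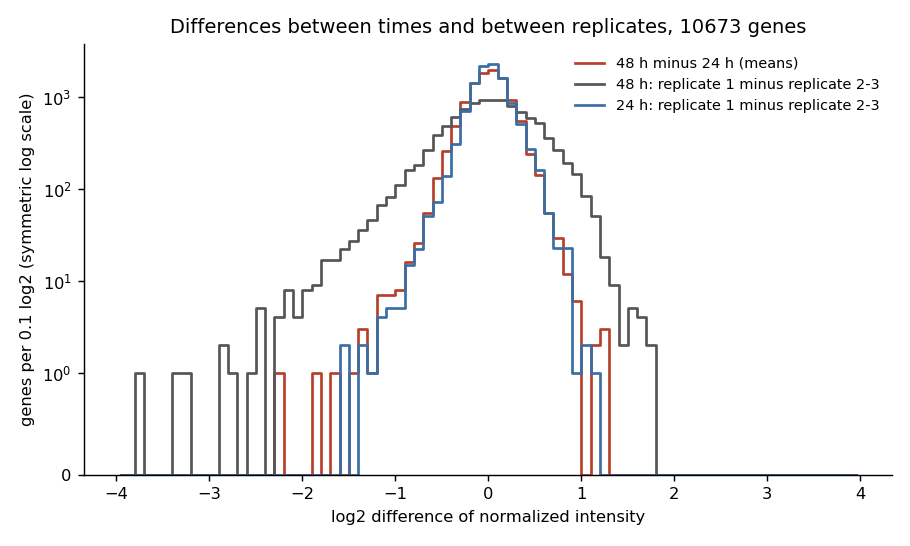
Number of genes (y axis, symmetric log scale) by log2 difference of normalized intensity (x axis, bins of 0.1), for 10673 genes. The red line is the mean at 48 h minus the mean at 24 h, the grey line replicate 1 minus replicate 2-3 at 48 h and the blue line the same at 24 h. The grey curve is the widest, with 532 genes more than 2-fold apart, and the red and blue curves nearly coincide, with 27 and 17. The red curve uses means of 2 samples and the others single samples, and means vary less. Its width and count cannot be set directly against theirs.

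The pigment cell profile was present at both times. TYR, the rate-limiting enzyme of melanin synthesis, read 12.01 and 12.47 in EtOH 48 h samples and 11.94 and 11.93 in EtOH 24 h samples. PMEL, which forms the fibrils of the melanosome, read 14.31 and 14.42 at 48 h and 14.40 and 14.42 at 24 h. The PMEL values overlapped, whereas all 3 TYR arrays at 48 h lay above all 3 at 24 h by a mean of 0.31 ± 0.16 (SE), which did not pass the test (adjusted p = 0.862, limma). TYRP1, MLANA, MITF and SOX10, also genes of the pigment lineage, were detected on all 6 arrays with overlapping values at both times and differences between -0.19 and 0.07. A second MITF probe, detected on 2 of 3 arrays at 24 h and on none at 48 h, differed by -0.66. Of 14 tested genes of melanin synthesis and the melanosome matrix, 13 were detected on all 6 arrays, and the median difference was -0.02, compared with 0.01 over all tested genes. Of 19 genes of melanosome biogenesis and transport, all were detected on all 6 arrays and the median difference was 0.13. Among them was MLPH, which encodes the melanophilin that links melanosomes to myosin, at 10.54 and 10.65 in 48 h samples and 9.95 and 10.06 in 24 h samples. Its difference of 0.59 ± 0.15 was the largest of that list and did not pass, although its arrays did not overlap.

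The driver and classifier genes of uveal melanoma were also measured. GNAQ itself read 5.35 and 7.60 in the 48 h samples and 6.68 and 6.23 in the 24 h samples, and it was detected on 2 of 3 arrays at each time. The values at 48 h lay on both sides of those at 24 h, and the difference was 0.02 ± 0.48 (95% interval -1.01 to 1.06). Without replicate 2-3 of 48 h it was -1.10, and without replicate 1 of 48 h it was 1.15. GNA11, the other G protein alpha gene, read 8.45 and 9.06 at 48 h and 9.02 and 9.24 at 24 h, and its values overlapped. RASGRP3, the exchange factor between the G protein and Ras, read 10.56 and 10.69 at 48 h and 10.53 and 10.37 at 24 h, a difference of 0.18 ± 0.16. SF3B1 and EIF1AX, genes mutated in other uveal melanomas, differed by -0.03 and 0.17 with overlapping values. PRAME, a tumour antigen tied to metastasis, read 10.47 and 10.32 at 48 h and 10.25 and 10.23 at 24 h. Its difference of 0.15 ± 0.19 did not pass the test (adjusted p = 0.967, limma). Among 17 tested genes of the Gq pathway, none passed and the median was 0.00. RASD1, a Ras-related gene in that list named after its values were seen, read 6.15 and 6.38 at 48 h and 5.69 and 5.54 at 24 h.

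**Figure D2:**
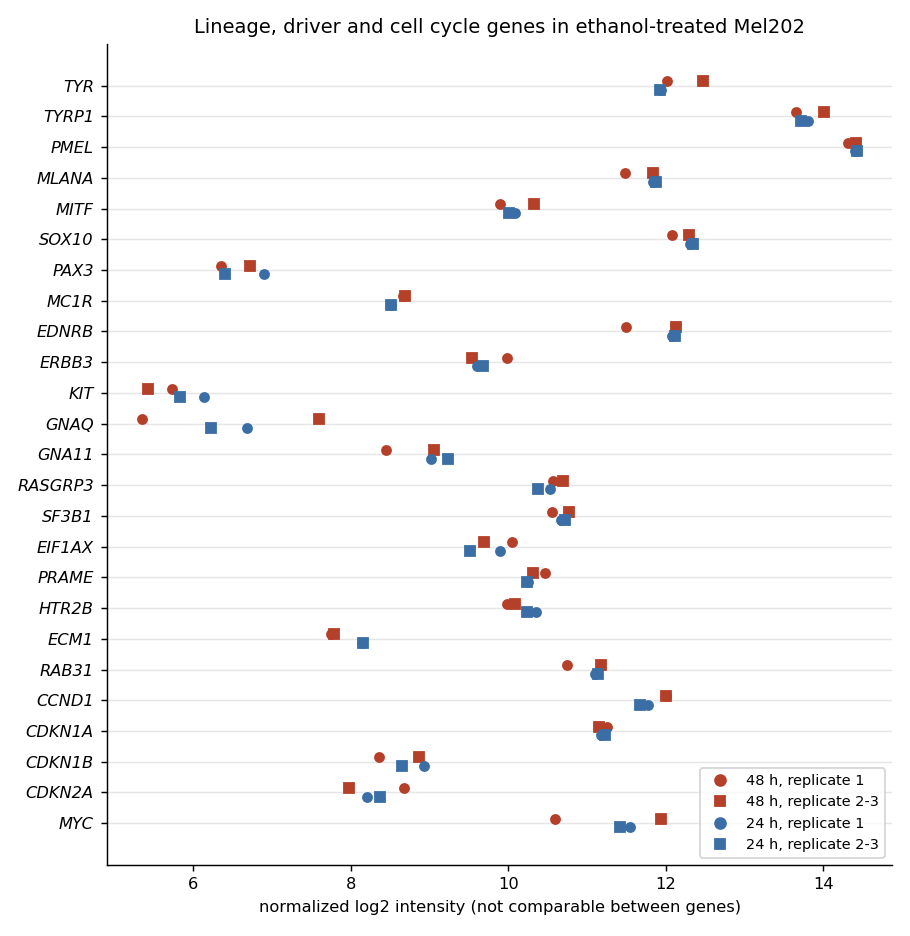
Normalized log2 intensity (x axis) of lineage, driver and cell cycle genes (y axis) in the vehicle samples, with EtOH 48 h in red above EtOH 24 h in blue. Circles are replicate 1 and squares the mean of arrays 2 and 3. Most genes show values at 48 h on both sides of, or near, those at 24 h, and GNAQ and MYC show the widest gap between the 48 h samples.

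Very few genes passed the test between the times. Of 10673 genes, 3 (0.0281%) passed an adjusted p of 0.05 in the limma test over 48 h minus 24 h: CDH1 was higher at 48 h (1 gene, 0.00937%), and MGP and MYOT were lower (2 genes, 0.0187%). At an unadjusted p under 0.05 there were 632 genes (5.92%), 310 higher (2.9%) and 322 lower (3.02%). The median difference was 0.01, with quartiles of -0.14 and 0.15, and 27 genes were more than 2-fold apart in the means, 5 higher and 22 lower. The 95% interval of a gene's difference had a median half-width of 0.43, with 10th and 90th percentiles of 0.33 and 0.65, and the smallest difference called was 1.28. All 3 arrays at 48 h lay above all 3 at 24 h for 749 genes (7.02%), and below them for 777 (7.28%). The count of called genes was 9 without replicate 1 of 48 h and 366 without replicate 2-3 of 48 h. It was 0 without either 24 h sample, at an unadjusted p under 0.05 for 379 genes without replicate 1 and 328 without replicate 2-3. The 4075 detected probes that are listed with no single gene gave 0 calls in limma.

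CDH1, on chromosome 16, encodes E-cadherin, the adhesion molecule of epithelial cells, and it is one of the genes raised in the metastasizing class 2 of uveal melanoma. It read 8.28, 8.61 and 8.48 on the EtOH 48 h arrays, against 7.29, 7.27 and 6.71 on the EtOH 24 h arrays. Every array at 48 h was higher than every array at 24 h. The difference of 1.28 ± 0.18 was a 2.43-fold rise (adjusted p = 0.0245, limma). It was 1.17 within set 1 and 1.77 within set 2. Without the 24 h replicate 1 it was 1.43 (adjusted p = 0.146, limma) and without the 24 h replicate 2-3 it was 1.13 (adjusted p = 0.496), so the call needed both 24 h samples. The change with time was also tested in the retinoid cultures, which share no sample with these. There CDH1 rose by 1.53 between the times in ATRA (adjusted p = 0.000215, limma) and by 1.04 in 9-cis RA (adjusted p = 0.0224).

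The other genes near CDH1 in function were described from lists. Of 5 genes listed here under class 2, PRAME among them, 1 passed the test. ECM1, an extracellular matrix protein, read 7.75 and 7.79 in 48 h samples and 8.14 and 8.15 in 24 h samples. Its difference of -0.38 ± 0.13 did not pass (adjusted p = 0.666, limma). HTR2B, a serotonin receptor, read 9.99 and 10.08 at 48 h and 10.36 and 10.24 at 24 h, and its arrays did not overlap. RAB31, a small GTPase of vesicle transport, overlapped. Of the 4 genes other than CDH1, ECM1, HTR2B and RAB31 were lower at 48 h, by -0.38, -0.26 and -0.16, and PRAME differed by 0.15. Of 19 tested integrin and cadherin genes, CDH1 was the 1 that passed. CDH19, a cadherin of the neural crest, read 6.96 and 7.96 at 48 h and 8.25 and 8.34 at 24 h. Its difference of -0.83 ± 0.26 did not pass (adjusted p = 0.564, limma), and without replicate 2-3 of 48 h it was -1.33. Of the 9 epithelial markers, 3 were tested. ESRP1, a splicing factor of epithelia, differed by -0.45 ± 0.18 and did not pass. CLDN4, a tight junction protein, was detected on 2 of 3 arrays at 48 h and on 0 of 3 at 24 h. Its arrays overlapped, at 5.95, 5.29 and 6.20 at 48 h and 5.43, 5.27 and 6.19 at 24 h. The CLDN4 difference of 0.26 ± 0.25 did not pass either. The summed linear intensity of the 3, most of it from CDH1 at 48 h, was 477 and 539 in 48 h samples and 342 and 330 in 24 h samples. Without CDH1 it was 165 in both 48 h samples and 186 and 203 in the 24 h samples. EPCAM and the keratins of the list were not analysed here, and the part of other cells in this result was not tested.

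MGP, on chromosome 12, encodes matrix Gla protein, a secreted inhibitor of calcification. It read 9.60, 9.09 and 9.08 on the EtOH 48 h arrays, against 10.64, 10.80 and 10.64 on the EtOH 24 h arrays. All 3 values at 48 h were lower than all 3 at 24 h. MGP fell by 1.34 ± 0.18 on the log2 scale, a value 2.52-fold higher in the 24 h samples (adjusted p = 0.0201, limma), and its second probe differed by -1.37. The difference was -1.37 in set 1 and -1.56 in set 2. Leaving out the 24 h replicate 1 gave -1.38 (adjusted p = 0.196), and leaving out the 24 h replicate 2-3 gave -1.29 (adjusted p = 0.43, both limma). Between the times MGP differed by 0.04 in ATRA (adjusted p = 0.949, limma) and by -0.07 in 9-cis RA (adjusted p = 0.85). The test of the difference between EtOH and these did not pass (adjusted p = 0.0689 against ATRA and 0.135 against 9-cis RA).

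MYOT, on chromosome 5, encodes myotilin, an actin-binding protein of the Z-disc of muscle. It read 5.11, 5.43 and 4.70 on the EtOH 48 h arrays, against 6.47, 6.43 and 6.49 on the EtOH 24 h arrays. It was detected on 0 of 3 arrays at 48 h and on 3 of 3 at 24 h, so the signal at 48 h is a bound, and the gene was at least 1.70-fold lower there. The fitted difference, which uses signals below detection, was -1.38 ± 0.15 (adjusted p = 0.00675, limma), -1.18 in set 1 and -1.79 in set 2. With no background correction it was -0.51 (adjusted p = 0.102) and in the authors' values -0.34 (adjusted p = 0.124), and neither passed. Without the 24 h replicate 1 it was -1.38 (adjusted p = 0.146), and without the 24 h replicate 2-3 it was -1.38 (adjusted p = 0.185). The promoter of MYOT is shown because it is the gene with the lowest p, from RefSeq on GRCh38.p14, chr5:137867610-137867909, plus strand, 250 bases before to 50 after the annotated start. Capitals mark each CANNTG, the E-box that MITF and the muscle bHLH factors can bind.
MYOT: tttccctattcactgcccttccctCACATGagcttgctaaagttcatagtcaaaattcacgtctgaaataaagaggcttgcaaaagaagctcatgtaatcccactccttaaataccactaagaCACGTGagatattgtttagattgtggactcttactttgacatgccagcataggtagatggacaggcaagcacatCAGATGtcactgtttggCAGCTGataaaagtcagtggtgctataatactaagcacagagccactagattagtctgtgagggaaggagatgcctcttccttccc
CANNTG occurs in 68.7% of 35116 promoters of this length, and reads the same on both strands as a class. One match in MYOT has the letters CACGTG, found in 7.26% of promoters, and one has CAGCTG, found in 17.9%. These motifs were chosen after the sequence was read, and a match is a description, not a site of binding.

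The genes with the next lowest p did not pass the test but had arrays that did not overlap. CD36, a fatty acid and lipoprotein receptor, read 9.70, 9.75 and 10.10 at 48 h, against 10.97, 10.60 and 10.77 at 24 h, a difference of -1.02 ± 0.17 (adjusted p = 0.12, limma). Its second probe differed by -0.68. NRCAM, a neural adhesion molecule, read 6.44, 6.72 and 6.99 at 48 h, against 7.94, 7.48 and 7.74 at 24 h, a difference of -1.13 ± 0.20 (adjusted p = 0.14). Both passed without background correction, at adjusted p of 0.0307 for CD36 and 0.0473 for NRCAM, and with a term for array set and random sample blocks, at 0.0377 and 0.0207. CD36 also passed in the authors' values (adjusted p = 0.0433, limma). ALDH1A2, which makes retinoic acid from retinaldehyde, read 6.10, 6.03 and 5.81 at 48 h, against 5.24, 5.27 and 5.21 at 24 h. It was detected on 2 of 3 arrays at 48 h and on 0 of 3 at 24 h, so it was at least 1.25-fold higher on this normalized scale. A second probe, undetected on all 6, differed by -0.07. Without background correction the ALDH1A2 difference was 0.26 (adjusted p = 0.591) and in the authors' values 0.17 (adjusted p = 0.583, both limma). ALDH1A2 passed between the times in both retinoids, by 1.17 in ATRA (adjusted p = 0.000215) and 0.98 in 9-cis RA (adjusted p = 0.00657, limma). OLFM1, a secreted glycoprotein of neural tissue, read 10.98, 10.83 and 10.82 at 48 h, against 10.02, 9.88 and 9.98 at 24 h, a difference of 0.92 ± 0.17 (adjusted p = 0.14). OLFM1 passed without background correction (adjusted p = 0.0343), in the authors' values (0.0433) and with the term for array set and sample blocks (0.0493, limma). Without replicate 2-3 of 48 h the differences were -1.13 for CD36, -1.33 for NRCAM, 0.86 for ALDH1A2 and 1.00 for OLFM1.

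GAGE12C, on the X chromosome, is a cancer testis antigen whose probe cannot be told from those of near-identical GAGE copies. It read 11.69, 11.22 and 11.18 at 48 h, against 10.52, 10.65 and 10.65 at 24 h, a difference of 0.86 ± 0.17 (adjusted p = 0.217, limma). CIRBP, an RNA-binding protein induced by cold, read 10.74, 10.90 and 11.20 at 48 h, against 11.60, 11.90 and 11.58 at 24 h, a difference of -0.77 ± 0.15 (adjusted p = 0.217). ACTA2, smooth muscle actin, read 8.83, 8.82 and 8.67 at 48 h, against 9.85, 9.48 and 9.53 at 24 h, a difference of -0.89 ± 0.18 (adjusted p = 0.323). None of the 3 passed with all samples in the main processing. Without background correction GAGE12C (adjusted p = 0.0473) and CIRBP (0.041) did, CIRBP also in the authors' values (0.0433, limma). Without replicate 2-3 of 48 h GAGE12C differed by 1.11 and CIRBP by -0.93. The largest difference of all, that of the detoxifying enzyme gene GSTA2, did not pass. GSTA2 read 6.03 and 6.47 at 48 h and 8.35 and 8.74 at 24 h, and its adjusted p was 0.525 (difference -2.29 ± 0.65, limma).

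**Figure D3:**
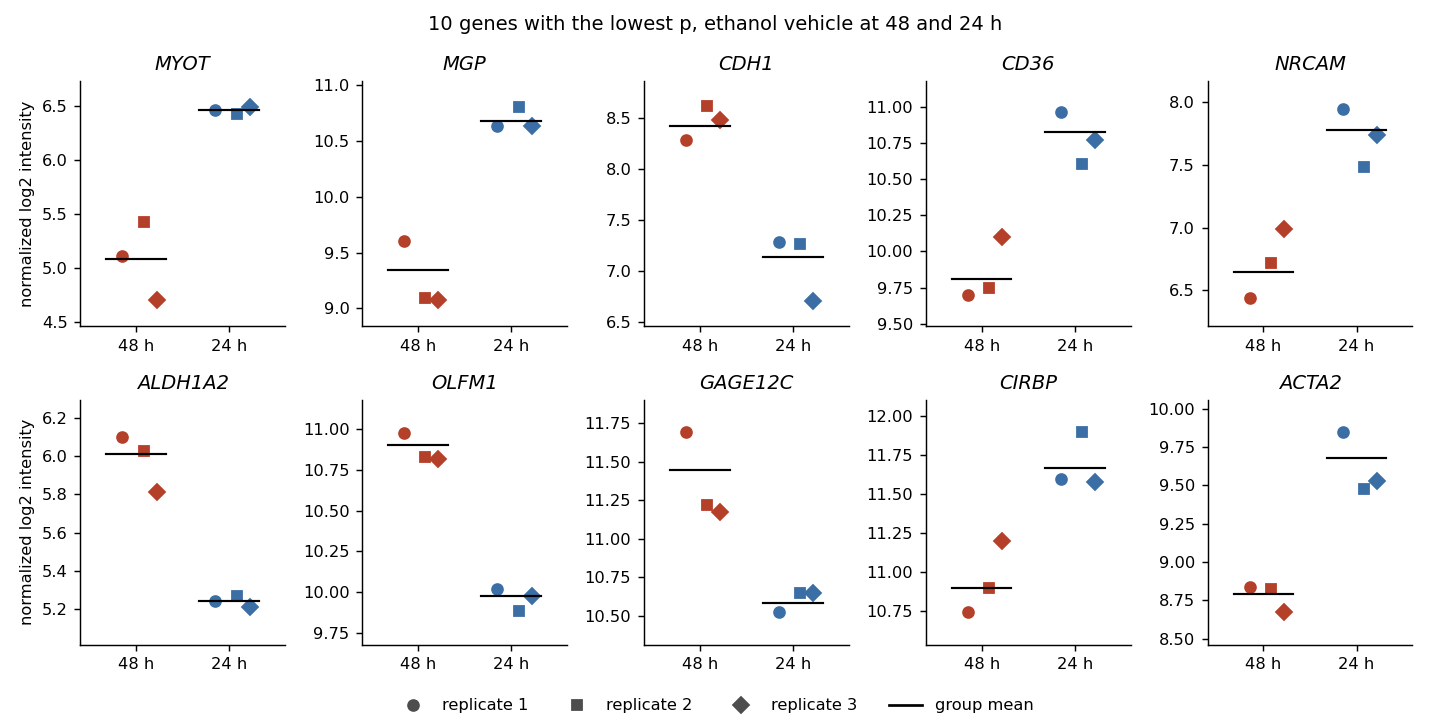
Normalized log2 intensity (y axis, a scale per gene) of the 10 genes with the lowest p on each vehicle array, with EtOH 48 h in red left of EtOH 24 h in blue. Symbols mark replicates and lines the mean over the 2 samples of a group. In each of the 10 genes the arrays of the times do not overlap, and MYOT, MGP and CDH1 are the 3 that passed.

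Genes of growth signalling were described by counts of members whose arrays did not overlap, since none of these genes passed the test. Of 24 immediate early genes, which respond within minutes to growth factors, 7 had all arrays at 48 h above all at 24 h, with 7.02% of all genes doing so, and 2 had all below. At an unadjusted p under 0.05 (limma) there were 6 higher and 1 lower, with 2.9% of all genes higher and 3.02% lower. EGR1 read 9.36 and 8.95 in 48 h samples and 8.40 and 8.52 in 24 h samples, a difference of 0.69 ± 0.18 (adjusted p = 0.437, limma). IER5 read 10.10 and 10.01 at 48 h and 9.23 and 9.31 at 24 h, and was the member with the largest difference, 0.78 ± 0.17. It passed with a term for array set and random sample blocks, at 0.77 (adjusted p = 0.0377, limma). Without replicate 2-3 of 48 h EGR1 differed by 0.90. JUN read 8.83 and 8.27 at 48 h and 8.15 and 7.98 at 24 h. The median of the list was 0.10 with all samples, 0.30 without replicate 1 of 48 h and 0.10 without replicate 2-3 of 48 h. In the 17 genes of MAPK output, 5 lay above and 0 below, with a median of 0.23. That median was 0.33 without replicate 1 of 48 h and 0.07 without replicate 2-3. SPRY4, an inhibitor of the pathway, read 9.66 and 9.62 at 48 h and 9.07 and 9.02 at 24 h. DUSP6, a phosphatase of ERK, overlapped, with a difference of 0.26 ± 0.16, while its second probe differed by -0.17. CCND1, cyclin D1, read 12.00 in both 48 h samples and 11.77 and 11.68 in the 24 h samples.

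No gene of the endoplasmic reticulum or lysosome lists passed the test either. Of 18 genes of the unfolded protein response, 4 lay above and 0 below, with 7.02% of all genes above and 7.28% below. At an unadjusted p under 0.05 (limma) there were also 4, all higher, with 2.9% of all genes higher. HSPA5, the chaperone BiP, read 8.57 and 8.21 in 48 h samples and 7.74 in both 24 h samples, and MANF, a secreted factor of endoplasmic reticulum stress, read 12.50 and 12.21 at 48 h and 11.55 and 11.84 at 24 h. Their differences were 0.65 ± 0.17 and 0.66 ± 0.18, and without replicate 2-3 of 48 h they were 0.83 and 0.81. The median of the list was 0.16, between 0.09 and 0.22 when any 1 of the 4 vehicle samples was left out. Of 28 lysosome genes, 4 lay above and 1 below, with a median of 0.03. In the ATF4 list of 28 genes, ASNS, asparagine synthetase, read 8.97 and 9.28 at 48 h and 9.78 and 9.73 at 24 h. Without replicate 2-3 of 48 h the ASNS difference was -0.78. Of the 28 genes 2 lay above and 2 below.

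Lipid genes were taken by pathway, and 0 of them passed. Of 11 genes of fatty acid synthesis, 6 lay above and 0 below, with 7.02% of all genes above. Among the 6 was SCD, the stearoyl-CoA desaturase, at 12.98 and 13.23 in 48 h samples and 12.93 and 12.78 in 24 h samples. FADS1, a fatty acid desaturase, read 10.64 and 10.31 at 48 h and 10.14 and 10.12 at 24 h, with the largest difference of these 6, 0.35 ± 0.17. The list median was 0.21, with values of 0.12 to 0.24 when any 1 sample was left out, but 0 of 11 reached an unadjusted p under 0.05. Of 19 genes of cholesterol synthesis and uptake, 0 lay above and 4 below, with 7.28% of all genes below. TM7SF2, a sterol reductase, read 5.77 and 5.75 at 48 h and 6.40 and 6.26 at 24 h, and HMGCS1, which makes the precursor of mevalonate, differed by -0.13 ± 0.18. In that list 2 genes had an unadjusted p under 0.05 (limma), both lower, with 3.02% of all genes lower. Of 16 genes of fatty acid oxidation and PPAR targets, 0 lay above and 4 below, including PLIN2, which coats lipid droplets, at 9.64 and 9.76 in 48 h samples and 10.04 and 10.06 in 24 h samples. ABCA1, the cholesterol exporter, read 8.28 and 8.60 at 48 h and 7.72 and 7.42 at 24 h, a difference of 0.87 ± 0.19 among 8 LXR targets with a median of 0.18. That median was -0.03 without replicate 1 of 48 h.

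Genes of glucose use lay in both directions, and none passed. Of 21 glycolysis genes, 5 lay above and 1 below, with 7.02% of all genes above and 7.28% below, and the median was 0.00. In limma, 3 of the 21 were higher and 2 lower at an unadjusted p under 0.05, with 2.9% and 3.02% of all genes. SLC2A3, a glucose transporter, read 8.47 and 7.90 in 48 h samples and 7.41 and 7.32 in 24 h samples, a difference of 0.82 ± 0.23, while ENO1, enolase, read 13.26 and 13.68 at 48 h and 13.79 and 13.90 at 24 h. Without replicate 2-3 of 48 h SLC2A3 differed by 1.11 and ENO1 by -0.59. TXNIP, which restrains glucose uptake, read 6.52 and 6.13 at 48 h and 6.01 and 5.94 at 24 h, and its arrays overlapped. Of 19 hypoxia genes, 1 lay above and 0 below, near the shares over all genes.

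No gene of the contact and matrix lists described next passed. Over all tested genes 7.02% lay above and 7.28% below. Of 13 tested targets of YAP and TEAD, 0 lay above and 3 below. At an unadjusted p under 0.05 (limma) there were 3, all lower, with 3.02% of all genes lower. CCN1, a matricellular protein, read 7.37 and 7.73 in 48 h samples and 8.12 and 8.45 in 24 h samples, a difference of -0.73 ± 0.24 (adjusted p = 0.661, limma). CCN2, a related gene, read 7.54 and 7.92 at 48 h and 8.04 and 8.38 at 24 h. The median of the list was -0.04. Of 25 collagen, laminin and matrix genes, 2 lay above and 5 below, with a median of -0.04. COL18A1 read 5.82 and 5.88 at 48 h and 6.43 and 6.47 at 24 h, and COL9A3 read 7.42 and 7.14 at 48 h and 6.63 and 6.93 at 24 h, in the other direction. Of 15 actin and SRF genes, 1 lay above and 1, ACTA2, below, near the share over all genes.

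The 3 cell cycle lists had 0 passing genes. The 40 genes of DNA replication had a median of 0.06, with 3 above and 1 below, and the 38 genes of G2 and mitosis one of -0.05, with 2 above and 3 below, shares near the 7.02% above and 7.28% below over all genes. At an unadjusted p under 0.05 in limma these lists held 1 and 2 genes, all lower, with 3.02% of all genes lower. The 16 G1 cyclin and CDK inhibitor genes had a median of -0.10, with 1 above and 1 below, and 1 gene, lower, at an unadjusted p under 0.05. MKI67, the proliferation antigen, read 5.86 and 5.80 in 48 h samples and 5.99 and 5.98 in 24 h samples, and was detected on 2 of 3 arrays at each time. The inhibitors CDKN1A, CDKN1B and CDKN2A differed by -0.01, -0.18 and 0.04 with overlapping values. MYC read 10.59 and 11.94 at 48 h and 11.55 and 11.41 at 24 h. The difference of -0.22 ± 0.30 was -0.89 without replicate 2-3 of 48 h. Among 17 p53 targets the median was -0.01, and GDF15, a stress cytokine, read 10.53 and 10.22 at 48 h and 9.95 and 9.78 at 24 h. The 48 genes of the respiratory chain had a median of 0.06 and the 48 cytosolic ribosomal protein genes one of 0.01.

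Some lists split along the gap between the 48 h samples. The median of the 5 metallothioneins was -0.23 with all samples, -0.58 without replicate 1 of 48 h and 0.14 without replicate 2-3. Genes of the MHC class I pathway had 0.15, -0.09 and 0.34 in the same order, and the respiratory chain 0.06, -0.09 and 0.24. For melanin synthesis they were -0.02, 0.15 and -0.12, and for the melanocyte and neural crest transcription factors -0.09, 0.18 and -0.24. For the G1 cyclins and CDK inhibitors they were -0.10, 0.07 and -0.28. In the heat shock list the 3 medians were -0.01, 0.14 and -0.17. Within that list CRYAB, a small heat shock protein, read 11.52 and 10.76 in 48 h samples and 11.92 and 12.07 in 24 h samples, a difference of -0.85 ± 0.20. Without replicate 1 of 48 h the CRYAB difference was -1.23. For these lists the direction depended on which 48 h sample was kept.

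**Figure D4:**
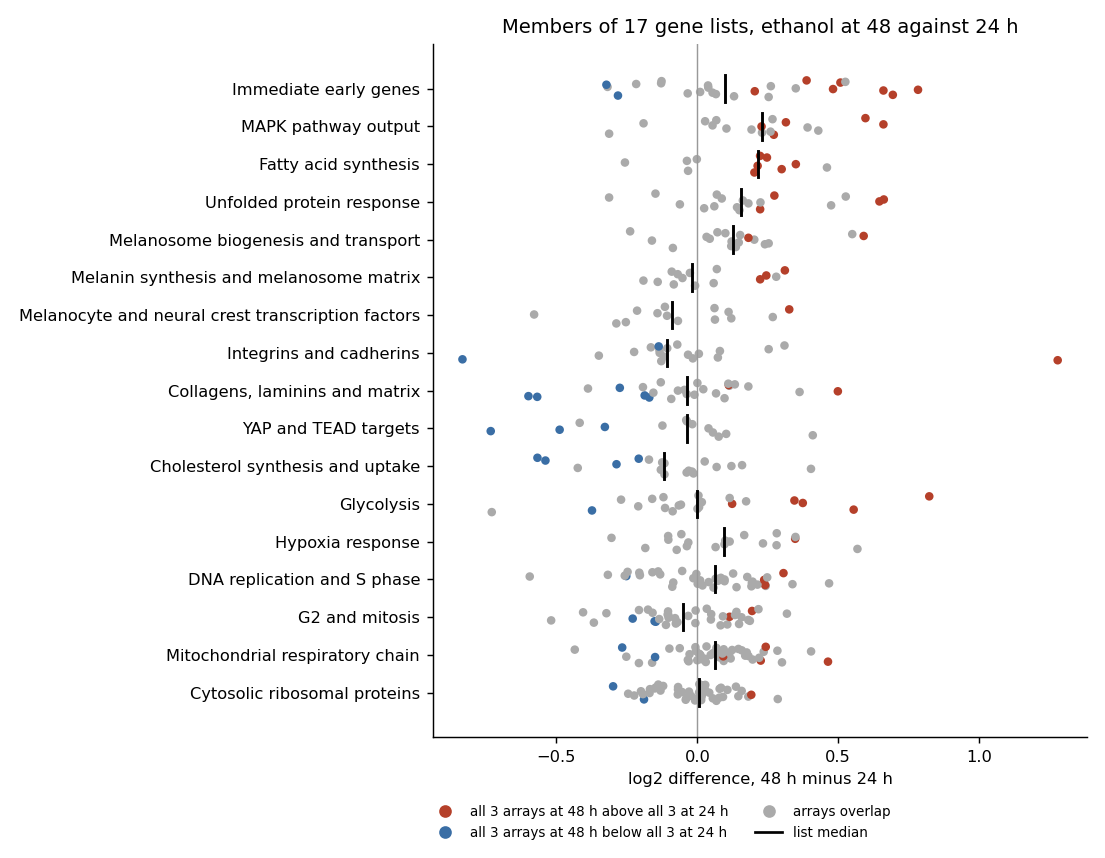
Log2 difference of each tested member (x axis, EtOH 48 h minus EtOH 24 h) for 17 gene lists (y axis). Red points have all 3 arrays at 48 h above all 3 at 24 h, blue points have all below, grey points overlap, and black bars are list medians. List medians lie between -0.12 and 0.23, and CDH1, at 1.28 in the integrin and cadherin list, is the point farthest from 0.

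The change with time in EtOH was set against that in the retinoid cultures, which have no samples in common with it. Between the times 3 genes passed in EtOH (4 samples), against 112 (1.05%) in ATRA (6 samples) and 269 (2.52%) in 9-cis RA (4 samples). The change in EtOH differed from that in ATRA for 4 of 10673 genes (0.0375%), CYP26B1, KCNJ13, MXD4 and DCN, and from that in 9-cis RA for 1 (0.00937%), KCNJ13, all with a lower change in EtOH. CYP26B1, which degrades retinoic acid, read 5.84 and 5.88 at EtOH 48 h and 5.44 and 5.74 at EtOH 24 h. It was detected on 2 of 3 arrays at EtOH 48 h and on 1 of 3 at EtOH 24 h, so these values lie near the detection limit. In ATRA it read 8.74, 8.84 and 8.89 at 48 h and 6.63, 6.32 and 6.52 at 24 h. MXD4, a partner of MAX that opposes MYC, read 9.06 and 9.12 at EtOH 48 h and 9.26 and 9.33 at EtOH 24 h. In ATRA it read 10.24, 10.46 and 10.36 at 48 h and 9.36, 9.21 and 9.40 at 24 h. KCNJ13, a potassium channel, and DCN, the matrix proteoglycan decorin, were not detected on any vehicle array, so no fold is given for them in EtOH. They passed the detection filter only through retinoid arrays, so their calls do not show a change with time in EtOH. In the test limited to genes detected on all 6 vehicle arrays, MXD4 was the 1 gene that passed against ATRA. That limit leaves out CYP26B1, KCNJ13 and DCN. Without replicate 2-3 of EtOH 48 h, 75 genes differed against ATRA and 244 against 9-cis RA, and without either EtOH 24 h sample, 1 and 0. Across genes, the change in EtOH had a Pearson correlation of 0.33 with that in ATRA and 0.03 with that in 9-cis RA over 10673 genes, which are not independent and share the arrays' normalization.

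**Figure D5:**
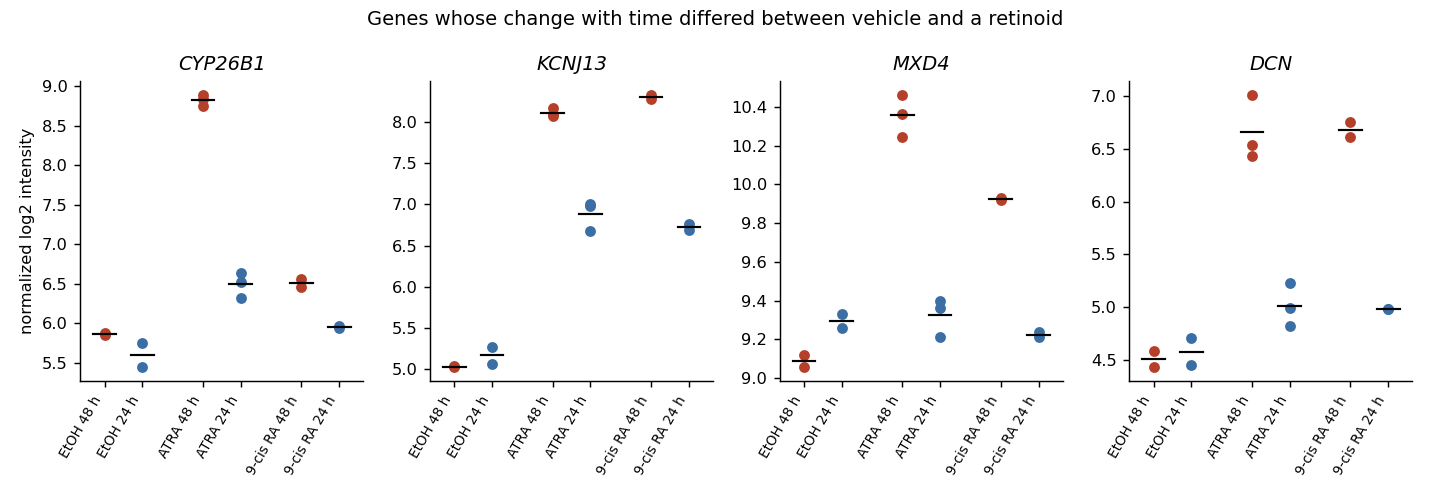
Normalized log2 intensity (y axis) of CYP26B1, KCNJ13, MXD4 and DCN in every sample, with 48 h in red left of 24 h in blue for EtOH, ATRA and 9-cis RA (x axis). Lines are group means. The vehicle samples at 48 h lie near those at 24 h, with KCNJ13 and DCN below detection in all of them. The ATRA samples at 48 h lie above all at 24 h, as for MXD4 at 10.24 to 10.46 against 9.21 to 9.40.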

How the data were processed

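Intensity per probe was deposited by the authors for each array, not normalized and with no background subtracted as far as the values show, beside a detection p-value that the authors deposited for each probe and that moves in steps of 1 in 770. Log2 values in the series matrix were deposited by the authors, who used lumi per the submitters' processing notes; the version and settings are not given in the sources used here. RNA was labelled with biotin and read on an Illumina BeadChip, per the labels. The members, gene lists and tests were chosen with earlier results of these data known.

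Background correction, quantile normalization and the log2 transform used neqc of limma 3.58.1 (offset 16) in R 4.3.3. Figures were drawn with Python 3.11.15 and matplotlib 3.10.9. A probe was kept if its detection p was below 0.01 on 3 or more of 20 arrays (18269 probes). Of these, 14194 have a single gene in the platform's annotation, and each gene was represented by its probe of highest mean. Arrays sharing a sample number were averaged. A limma model with 6 group means was fitted to 14 samples (8 residual and 5.09 prior degrees of freedom), with Benjamini-Hochberg adjustment over 10673 genes. For folds given as a bound, signals of an undetected group were raised to the lowest detected signal of their array. The tests used the normalized signals unchanged, including those below detection. Genes named are the 10 with the lowest p, a set of driver, lineage and growth genes, up to 6 members of each list with a passing gene and the genes passing a difference in time change; other list members were chosen after their values were seen. BAP1, DCT, S100B and ARRDC4 of that set were not analysed here, and PLCB4 did not pass the detection filter. The pipeline was tested on simulated data.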

Additional observations from a re-analysis of the deposited data

Results flagged for a closer look

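The change with time in EtOH, 48 h minus 24 h, differed from that in a retinoid for 5 results in limma's test of the difference. Against ATRA the change differed by -2.07 ± 0.20 for CYP26B1 (adjusted p = 0.00101), by -1.36 ± 0.19 for KCNJ13 (adjusted p = 0.0289), by -1.24 ± 0.18 for MXD4 (adjusted p = 0.0289) and by -1.72 ± 0.26 for DCN (adjusted p = 0.0411). Against 9-cis RA it differed by -1.72 ± 0.21 for KCNJ13 (adjusted p = 0.0179). In EtOH alone CYP26B1 differed between the times by 0.27 and MXD4 by -0.21, and neither passed. CYP26B1 was detected on 2 of 3 arrays at EtOH 48 h and on 1 of 3 at EtOH 24 h, so its change there also uses signals below detection. In ATRA the changes were 2.34 for CYP26B1, 1.22 for KCNJ13, 1.03 for MXD4 and 1.65 for DCN. KCNJ13 and DCN were below detection on all 6 vehicle arrays, so their differences use signals below detection and no change in EtOH is given. Both passed the detection filter only through retinoid arrays.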

How the results depend on the processing

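The number of genes that differed between EtOH 48 h and EtOH 24 h (3) was 7 without background correction, 5 with the authors' values, 7 with a term for array set and random sample blocks (estimated correlation 0.648) and 43 with the 20 arrays taken as independent. It was 0 with only the 4 EtOH samples and 0 with only set 1, where 321 and 834 genes had an unadjusted p under 0.05 in limma, and between 0 and 366 when any 1 vehicle sample was left out. Genes whose change with time differed between EtOH and ATRA (4) numbered 1 with equal array medians, 1 among genes detected on all 6 vehicle arrays, 11 with the array set term, 23 with independent arrays and 1 to 75 without 1 vehicle sample. Against 9-cis RA (1) there were 4 without background correction, 0 with equal medians (1108 at an unadjusted p under 0.05 in limma), 8 with the authors' values, 5 among genes detected on all 6, 23 with the array set term, 98 with only set 1, 428 with independent arrays and 0 to 244 without 1 vehicle sample. GNAQ (0.02) was -1.10 without replicate 2-3 of 48 h and 1.15 without replicate 1. CDH1 (0.69 to 1.43) and MGP (-1.59 to -1.08) kept their call in 10 of 14 alternatives each and MYOT (-1.40 to -0.34) in 7 of 13. The alternatives that ended the calls of CDH1 and MGP were the 4 EtOH samples alone, set 1 alone and leaving out either 24 h sample. MYOT also lost its call without background correction and in the authors' values. Fewer samples were used in the first 3 of these, and otherwise the cause was not tested. No paired analysis was possible because the labels give no replicate numbers shared between the times; the numbers used here follow accession order and name samples only.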
